A study of Mus musculus with 12 samples.

Results

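The unfolded protein response genes of the endoplasmic reticulum were followed through 4 groups of mouse hippocampus. The set is a list of 32 genes, 32 of the 35812 gene IDs in the deposited count table. They were taken by symbol, and each symbol was matched through its gene ID to a row of that table. The list holds 14 chaperones and folding enzymes, 7 genes of ER-associated degradation, 5 sensors and transcription factors, and 6 targets and effectors of Atf4. All 32 lie in protein-coding genes of the GRCm38 annotation.

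Hippocampal RNA was taken from 12 C57BL/6 mice, all male and all 8 weeks old, 3 mice to a group. The F0_Ctl mice were normal, and in F0_Dep a depressive state had been induced by stress. F1_Ctl were sons of normal males, and F1_Dep were sons of stress-induced depressed males. No group carried an engineered allele or a drug according to the labels. The sources used here do not say how stress was applied. Neither fathers nor litters are named, so mice of an F1 group may be brothers. The tests below treat each mouse as independent, which is not known for the F1 groups. Lane names stand in the labels of F1_Ctl alone, so being F1_Ctl and being sequenced differently cannot be told apart.

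The unfolded protein response is the programme that a cell starts when unfolded proteins collect in the endoplasmic reticulum. Its sensors sit in the ER membrane. Ern1 (IRE1) splices the mRNA of the transcription factor Xbp1, Atf6 is cut to release a transcription factor, and Eif2ak3 (PERK) phosphorylates eIF2, which slows translation in general and favours translation of Atf4. Xbp1 and Atf6 are known for raising chaperones and degradation genes, and Atf4 for raising genes of amino acid supply, redox balance and cell death. Splicing of Xbp1, cleavage of Atf6 and phosphorylation of eIF2 leave no direct trace in a gene-level count, so the values below are mRNA amounts only. In whole tissue, fewer cells of a type and less RNA per cell cannot be told apart.

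The promoters were searched for the motifs through which the branches are known to act. RefSeq promoters on GRCm38.p6, from 250 bases before to 50 bases after the annotated start, were matched by symbol for 28 of the 32 genes (29 promoters, because Derl2 has 2). Atf6, Manf, Hyou1 and Derl1 had no match. Both strands were searched. The ER stress response element (ERSE), which reads CCAAT, any 9 bases and then CCACG, is known to bind NF-Y at its first part and Atf6 or Xbp1 at its last part. It was present in 9 of the 28 genes and in 0.119% of all 32851 promoters of the table. The 9 genes were the chaperones Hspa5, Hsp90b1, Calr, Canx, Pdia6, Dnajc3 and Creld2 and the degradation genes Syvn1 and Derl3. No sensor and no Atf4 target held it in this window. The related ERSE-II, which reads ATTGG, any 1 base and then CCACG, was found in Herpud1 and Dnajb11 and in 0.0365% of all promoters. The C/EBP-ATF response element (CARE), TGATGNAA, to which Atf4 binds together with C/EBP proteins, was found in Asns, Chac1, Trib3 and Herpud1 and in 3.97% of all promoters. The core TGACGTGG of the Xbp1 element was in none of the 28 and in 0.676% of all promoters. A match is a description of letters, and binding was not measured.

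The stretches below show these matches in some of the genes that hold them. Those of Canx, Pdia6, Derl3, Dnajb11 and Trib3 are not shown. Letters run 5′ to 3′ on the strand of the gene, and capitals mark the letters the motif fixes. A site on the other strand reads as the reverse complement, CGTGG before ATTGG for ERSE and TTNCATCA for CARE. Hsp90b1 carries 2 ERSE, 1 on each strand. Herpud1 carries a CARE first and then an ERSE-II.
Hspa5, chr2:34772015-34772053, + strand: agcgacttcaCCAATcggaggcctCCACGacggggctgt
Hsp90b1, chr10:86705523-86705666, - strand: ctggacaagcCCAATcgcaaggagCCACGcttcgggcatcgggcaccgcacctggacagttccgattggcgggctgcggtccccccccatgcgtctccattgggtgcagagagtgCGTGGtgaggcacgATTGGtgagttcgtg
Calr, chr8:84847065-84847103, - strand: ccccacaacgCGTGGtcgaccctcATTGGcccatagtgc
Creld2, chr15:88819510-88819548, + strand: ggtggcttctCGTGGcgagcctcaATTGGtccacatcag
Dnajc3, chr14:118937817-118937855, + strand: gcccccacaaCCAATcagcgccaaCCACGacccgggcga
Syvn1, chr19:6046522-6046560, + strand: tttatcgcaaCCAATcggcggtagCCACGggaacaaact
Herpud1, chr8:94386307-94386397, + strand: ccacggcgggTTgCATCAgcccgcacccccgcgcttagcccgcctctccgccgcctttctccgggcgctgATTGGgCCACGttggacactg
Asns, chr6:7693215-7693242, - strand: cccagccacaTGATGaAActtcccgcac
Chac1, chr2:119351039-119351066, + strand: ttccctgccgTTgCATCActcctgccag

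The deposited FPKM values, which are scaled by gene length, covered the 9 libraries of F0_Ctl, F0_Dep and F1_Dep and place the genes against each other. Chaperones were the most abundant class, with a median over genes of 22.1 FPKM and a range of gene medians from 6.27 to 118. The range was 0.592 to 37.8 FPKM for ER-associated degradation, 2.73 to 69.8 for sensors and transcription factors and 0.224 to 42.7 for Atf4 targets. Calr, a calcium-binding chaperone of glycoproteins, had the highest median at 118 FPKM, followed by Hspa5 (BiP, the main Hsp70 of the ER) at 102. At the low end stood Ern1 at 2.73, Chac1, which breaks down glutathione, at 2.53, Derl3 at 0.592 and Trib3, a pseudokinase, at 0.224 FPKM. Atf4 mRNA, at 69.8 FPKM, was far above that of its targets other than Asns, at 42.7.

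**Figure D1:**
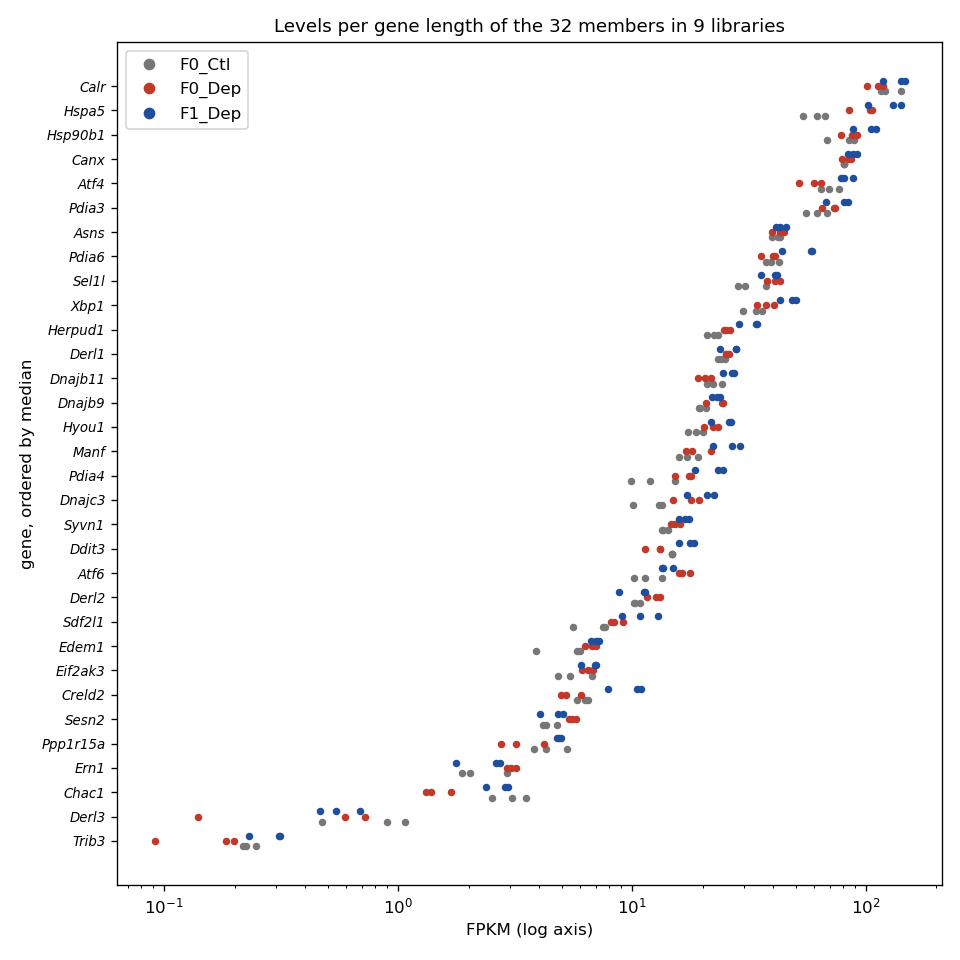
FPKM of each of the 32 genes in 9 libraries (log axis), 1 point a library coloured by group (F0_Ctl, F0_Dep and F1_Dep), with genes ordered by their median. Calr is at the top with a median of 118 FPKM, and Derl3 at 0.592 and Trib3 at 0.224 are at the bottom.

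Library totals lay between 18277208 and 23083678 counts. Of the 32 genes, 31 passed the filter on low counts and entered the fit of 16178 genes. Trib3 did not, with 0.22 to 0.585 CPM (counts scaled to library size) in the 12 libraries, and it has no value in this fit. Markers of neighbouring tissue differed between single libraries. All 10 markers of choroid plexus, the secretory epithelium beside the hippocampus, passed the filter, and their summed level ran from 37.3 to 4998 CPM in F0_Ctl, 34.7 to 255 in F0_Dep, 128 to 9059 in F1_Ctl and 2791 to 4496 in F1_Dep. The high libraries were F0_Ctl 3 and F1_Ctl 3 among the controls and all 3 of F1_Dep. Of these markers only Clic6 was at 0, in 1 F0_Ctl library. The 9 striatal markers summed to 1519 CPM in F1_Dep 1, 375 in F1_Dep 2 and 282 in F1_Dep 3, and to 290 CPM or less in every control library. The 8 markers of dentate granule cells, which define part of the hippocampus, summed to 143 to 440 CPM in F1_Dep and to 547 to 887 CPM in the other groups. Their part in the results below was not tested. Where a result is also given without some of these libraries, it is a description, because the remaining libraries still differed in these markers.

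The library F1_Ctl 3 stood apart from the others of its group in the chaperones. It was the highest of the 3 F1_Ctl libraries for 13 of the 14 chaperones, against 36.4% of all genes. A class level was taken as the median over its genes of log2 CPM, each gene centred on its own 12-library mean. The chaperone level was 0.44 in F1_Ctl 3, and -0.23 and -0.14 in F1_Ctl 1 and 2. In F0_Ctl it was -0.18, -0.16 and -0.12, in F0_Dep -0.20, -0.03 and 0.03, and in F1_Dep 0.02, 0.34 and 0.29. So 1 control library held the highest chaperone level of all 12, and F1_Dep 2 and 3 came next. The choroid plexus level on the same scale was 3.98 in F1_Ctl 3 and 3.05 in F0_Ctl 3. It was 1.78, 2.96 and 2.86 in F1_Dep 1, 2 and 3. The chaperone level of F0_Ctl 3, -0.12, was the highest of its group but close to that of the other F0_Ctl libraries. The part of choroid plexus RNA in the chaperone levels was not tested. The degradation class did not set F1_Ctl 3 apart, at -0.02 against -0.07 and -0.25 in F1_Ctl 1 and 2.

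**Figure D2:**
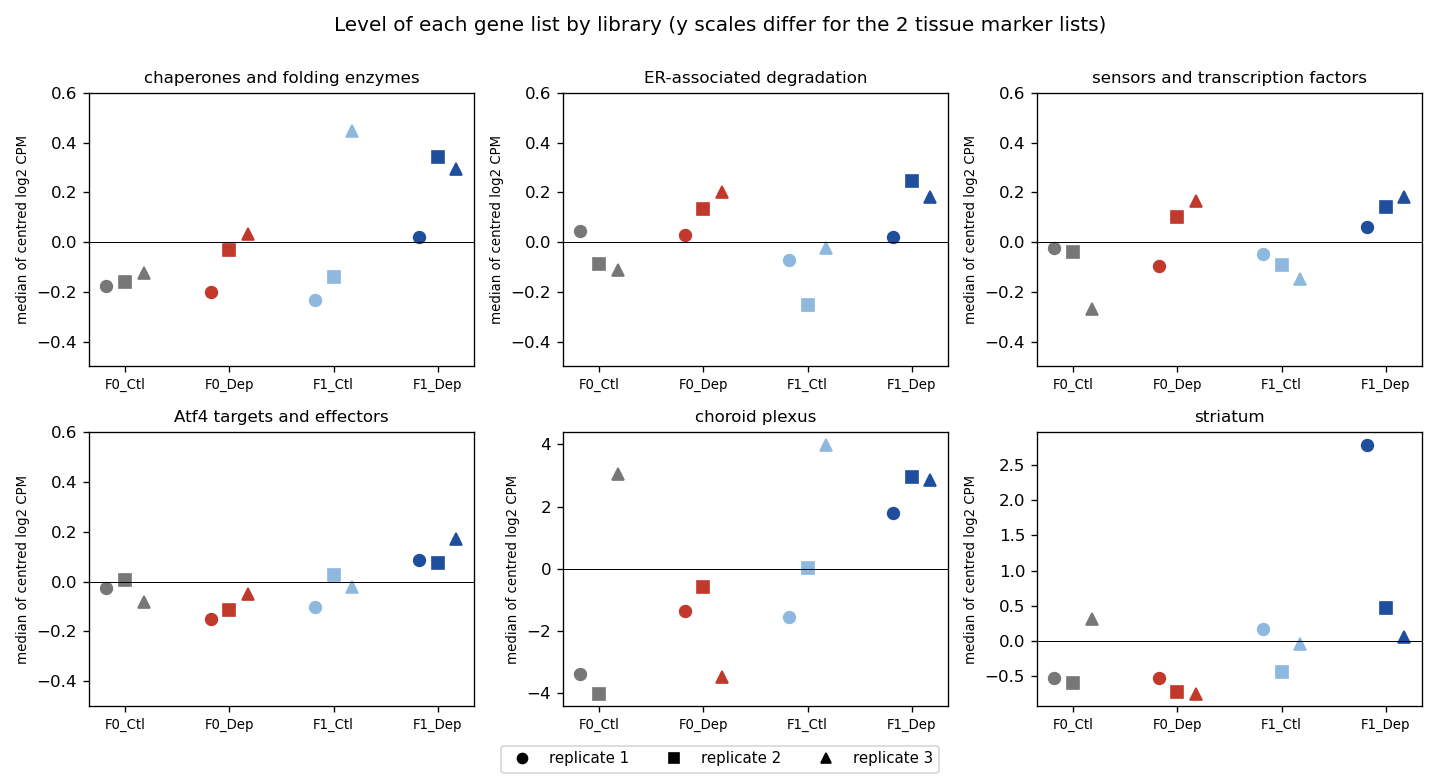
Level of each of the 4 classes in each of the 12 libraries, as the median over its genes of centred log2 CPM, beside the levels of choroid plexus and striatal markers, which have y axes of their own. Points are libraries, with the marker shape giving the replicate number; F1_Ctl 3 has the highest chaperone level, 0.44, and the highest choroid plexus level, 3.98.

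The first comparison, F0_Dep against F0_Ctl, asks what goes with stress in the exposed mice. None of the 31 tested genes passed an adjusted p under 0.05 in edgeR's quasi-likelihood test, where 0.494% of all 16178 genes did. At an unadjusted p under 0.05 there were 8 genes higher (25.8% of the 31, against 10.3% of all genes) and 1 lower (against 9.39%). The median log2 fold change of the 31 was 0.17, with 20 above 0 (64.5%, against 45.4% of all genes), while the median of all genes was -0.04. The 3 mice of each group did not overlap for 10 genes on the higher side and 3 on the lower, where 13.7% of all genes were non-overlapping in each direction. Markers of other cells moved in the same comparison: of 6 endothelial and pericyte markers, 5 were lower without overlap and at an unadjusted p under 0.05, and 1 of them, Rgs5, fell by 0.48 (adjusted p = 0.0472 in edgeR). Pyramidal cell markers (7 genes) summed to 2132 to 2279 CPM in F0_Dep and 1626 to 2019 in F0_Ctl, with a median log2 fold change of 0.04. Their part in the differences was not tested. On the counts of the 31 genes, limma with library quality weights called 0, where it called 321 of all 16178 genes higher and 137 lower. DESeq2 called 4 genes higher (Atf6, Sesn2, Herpud1 and Hyou1), where it called 4.75% of all genes higher, and 1 lower (Chac1, against 1.91%). On the FPKM values, limma called Hspa5, Atf6 and Dnajc3 higher, against 10.4% of all genes, and Chac1 lower, against 10.8%.

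F1_Dep against F1_Ctl, which shares no library with that comparison, asks what goes with the father's stress. It also holds the difference in lane labels, which cannot be told apart from the father's stress here. Again no gene of the 31 passed edgeR's test, where 0.167% of all genes did. At an unadjusted p under 0.05 there were 8 genes higher (25.8% of the 31, against 6.32% of all genes) and 0 lower (against 8.49%). The median log2 fold change was 0.20, with 25 of 31 above 0 (80.6%, against 46.9% of all genes), beside a median of -0.02 over all genes. Groups did not overlap for 7 genes, all higher in F1_Dep (Herpud1, Edem1, Syvn1, Sel1l, Hyou1, Eif2ak3 and Atf4), where 8.72% of all genes were so and 10.3% were lower without overlap. DESeq2 called 4 of them higher, Syvn1, Edem1, Herpud1 and Hyou1, against 1.59% of all genes. limma with library quality weights called 9 higher, against 3.81% of all genes. Tissue markers moved in the same comparison. All 9 striatal markers were higher at an unadjusted p under 0.05 (median 1.61), and 6 of the 8 dentate markers were lower at such a p (median of the 8, -1.42), of which Tdo2 and Plk5 passed edgeR's test. Their part in the differences was not tested. With 1 library left out, the median of the 31 genes ran from 0.14 without F1_Ctl 1 to 0.32 without F1_Ctl 3. Without F1_Ctl 3, edgeR called Hspa5 alone (0.91, adjusted p = 0.0452), where 0.0607% of all genes were called higher. Without F1_Ctl 1 it called Syvn1 alone (0.45, adjusted p = 0.0448, against 1.56%), and without F1_Dep 1 Herpud1 alone (0.65, adjusted p = 0.0496, against 0.0784%). Without F1_Ctl 2, F1_Dep 2 or F1_Dep 3 no gene of the 31 was called.

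**Figure D3:**
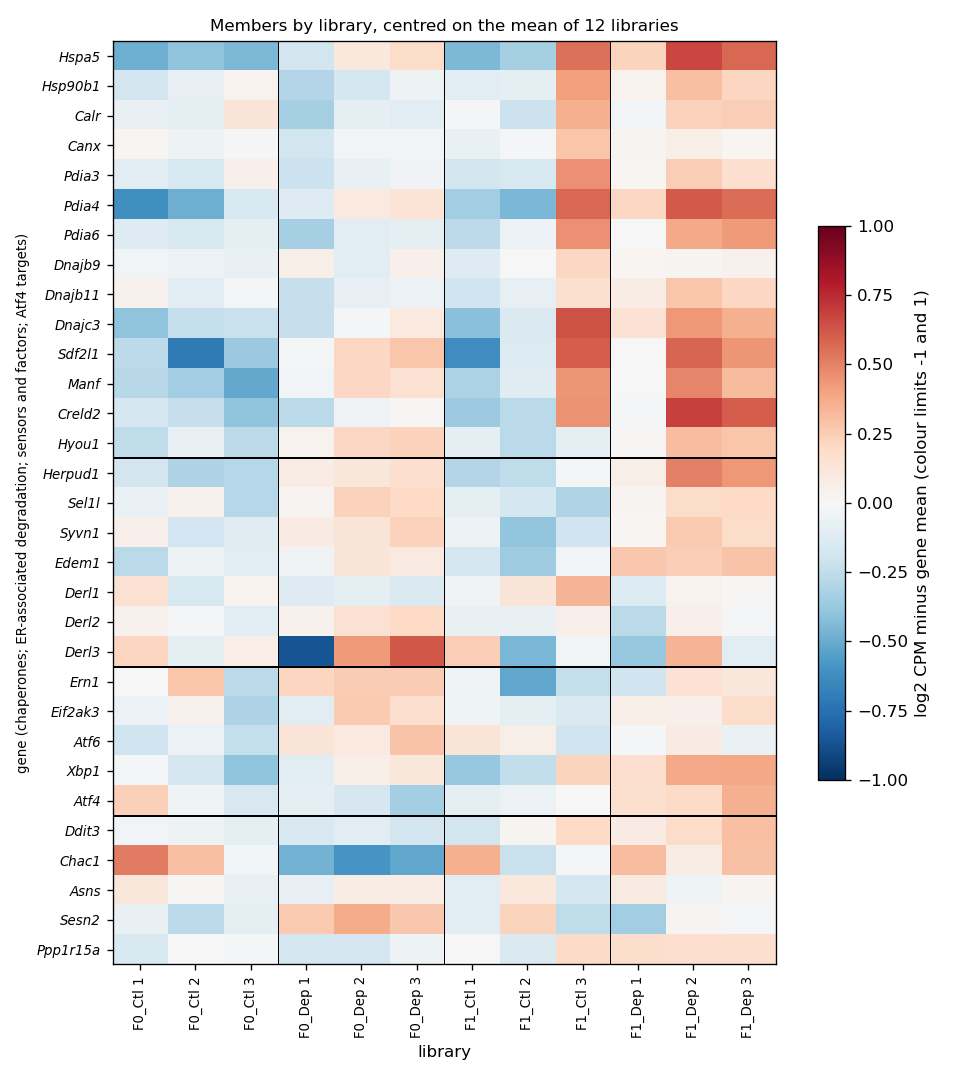
Log2 CPM of the 31 fitted genes (rows) in the 12 libraries (columns), centred on each gene's mean, with colour limits of -1 and 1 and lines between the classes. Chaperone rows are red, meaning high, in F1_Ctl 3 and in F1_Dep 2 and 3, whose class medians are 0.44, 0.34 and 0.29.

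Hspa5, the first of the chaperones, binds unfolded chains in the ER lumen and holds the sensors inactive. Its level was 185, 196 and 190 CPM in F0_Ctl, 227, 279 and 293 in F0_Dep, 190, 205 and 379 in F1_Ctl, and 303, 411 and 386 in F1_Dep. The F0 groups did not overlap, and the F1 groups did through F1_Ctl 3 alone. The log2 fold change was 0.49 (SE 0.22, adjusted p = 0.255 in edgeR) for F0 and 0.51 (SE 0.22, adjusted p = 0.318) for F1, so neither passed. The FPKM values of Hspa5 were 53.7, 66.7 and 61.7 in F0_Ctl and 84.8, 104 and 106 in F0_Dep. limma gave 0.69 (SE 0.14, adjusted p = 0.0122) on log2(FPKM + 1), a scale that understates the change of low genes.

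Hyou1, a large ER chaperone that exchanges the nucleotide of Hspa5, was free of overlap between groups in both generations but passed edgeR's test in neither. It stood at 78.2, 87.8 and 77.4 CPM in F0_Ctl and at 95.7, 107 and 109 in F0_Dep. In F1_Ctl it was 87.5, 77.2 and 87.0 CPM, and in F1_Dep 94.0, 116 and 113. The lowest Dep mouse was above the highest control mouse in each pair, and F1_Ctl 3 was not high for this gene. Hyou1 had a log2 fold change of 0.36 (SE 0.10, adjusted p = 0.1 in edgeR) for F0 and 0.36 (SE 0.10, adjusted p = 0.146) for F1. The counts of Hyou1, Hsp90b1 and Derl2 were fractional in all 12 libraries; how such counts arose was not tested. On FPKM the F0 difference of Hyou1 was smaller, 0.22 with an adjusted p of 0.142 in limma.

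Hsp90b1 (GRP94), the Hsp90 of the ER, did not follow Hspa5 in F0. Its level was 301, 324 and 351 CPM in F0_Ctl, 280, 304 and 331 in F0_Dep, 317, 321 and 455 in F1_Ctl, and 352, 423 and 398 in F1_Dep. The groups overlapped in both generations, in F1 through F1_Ctl 3 alone, as for Hspa5. The log2 fold changes were -0.09 (adjusted p = 0.745 in edgeR) for F0 and 0.10 (adjusted p = 0.792) for F1. On FPKM the F0 value was 0.09, on the other side of 0 and also not past the test. Of the 14 chaperones, 8 were above 0 in F0 and 12 in F1, with medians of 0.11 and 0.22.

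The other chaperones fell into those with larger and those with smaller differences. Sdf2l1, a partner of Hspa5, had log2 fold changes of 0.60 for F0 and 0.33 for F1. Manf, a secreted ER protein, had 0.49 and 0.25, and Pdia4, a disulfide isomerase, had 0.44 and 0.47. None of these 3 passed edgeR's test. In CPM their F0 groups did not overlap. Their F1 groups overlapped through F1_Ctl 3, which held 70.4 CPM of Pdia4 against 37.3 and 34.4 in F1_Ctl 1 and 2. The F0 values on FPKM were 0.28 for Sdf2l1, 0.11 for Manf and 0.44 for Pdia4, none past limma's test. The F0 groups of Manf overlapped on FPKM, with 17.04 in F0_Dep 1 against 19.1 in F0_Ctl 1. Its adjusted p there was 0.546 in limma. Creld2, another disulfide isomerase-like protein, was at 0.17 and 0.48, and Dnajc3, which binds unfolded protein for Hspa5, at 0.24 and 0.22. On FPKM the F0 value of Creld2 was -0.17, on the other side of 0, and that of Dnajc3 was 0.48. Of the 30 genes tested on FPKM in F0, 25 had the same sign as in the counts. The lectin chaperones Calr and Canx and the isomerases Pdia3 and Pdia6 lay between -0.17 and 0.20 in both comparisons. Dnajb9 was at 0.06 and -0.00, and Dnajb11 at -0.10 and 0.22; both are Hsp40 partners of Hspa5.

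**Figure D4:**
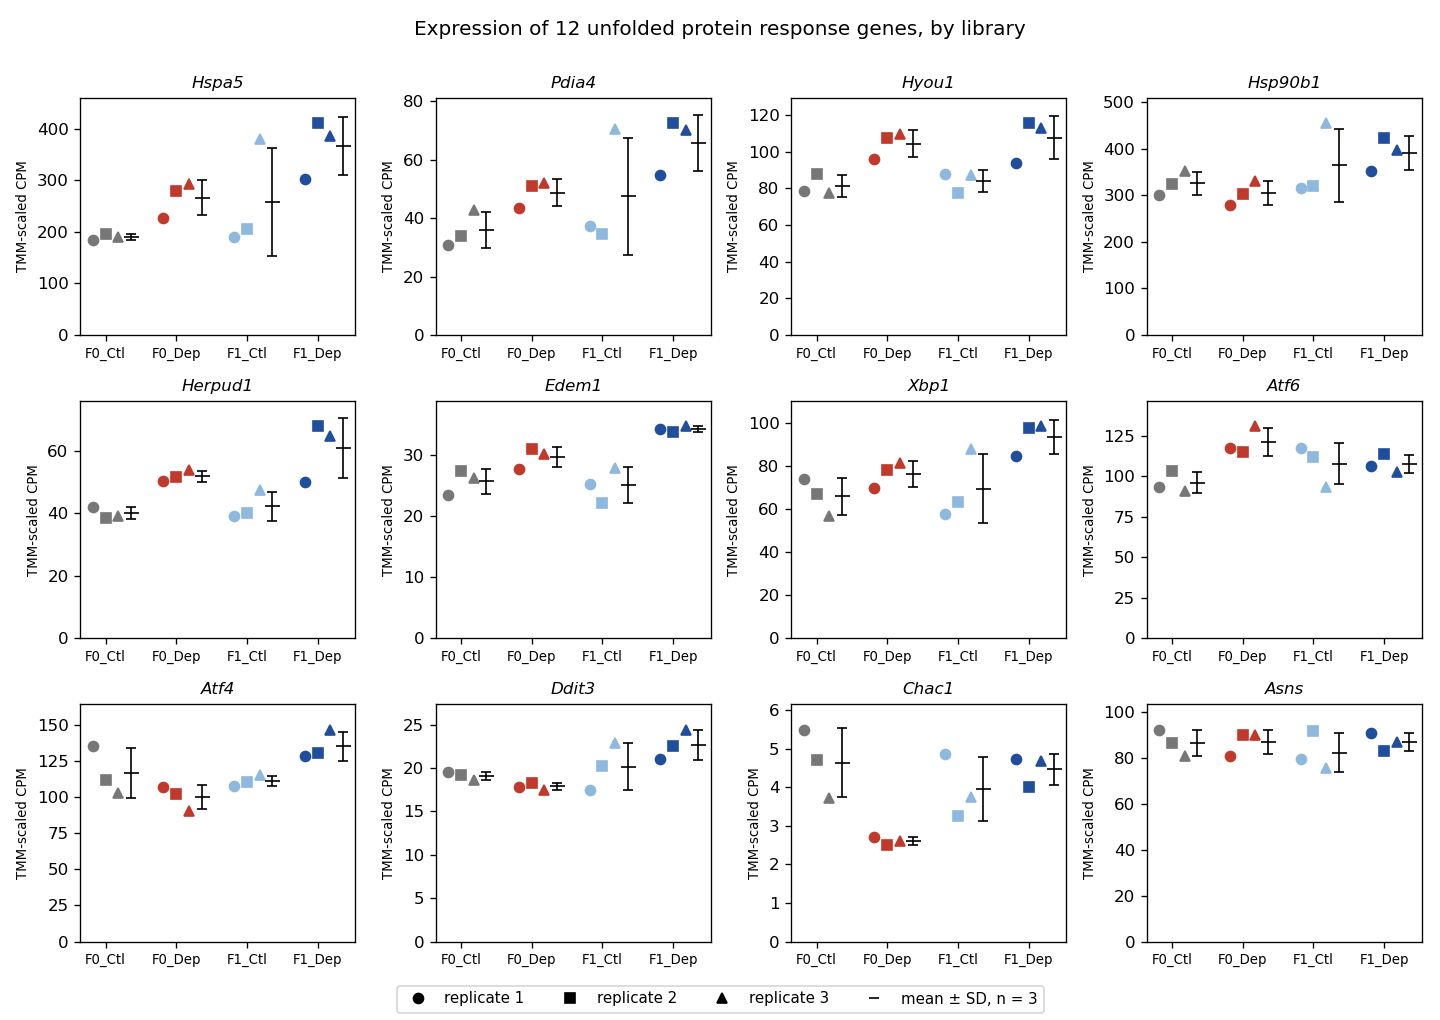
CPM in each of the 12 libraries for 12 genes, 1 panel a gene with its own axis from 0; coloured points are mice and the black bar is the mean with its SD (n = 3). Herpud1 and Hyou1 are higher in every Dep mouse than in every control mouse, and Hspa5 of F1_Ctl 3, at 379 CPM, reaches into the F1_Dep range.

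ER-associated degradation, which exports misfolded proteins for destruction, held 4 of the 7 genes that did not overlap between the F1 groups. Herpud1, a membrane scaffold of that machinery, stood at 42.1, 38.5 and 39.2 CPM in F0_Ctl and at 50.2, 51.7 and 53.7 in F0_Dep. It was at 39.0, 40.1 and 47.3 CPM in F1_Ctl and at 49.8, 67.8 and 64.6 in F1_Dep. Every Dep mouse was above every control mouse in both generations, F1_Ctl 3 included. Herpud1 had a log2 fold change of 0.38 (SE 0.12, adjusted p = 0.120 in edgeR) for F0 and 0.53 (SE 0.12, adjusted p = 0.0880) for F1. On FPKM the F0 difference was 0.19, with an adjusted p of 0.156 in limma.

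Edem1, which picks out misfolded glycoproteins by their sugars, had 23.4, 27.3 and 26.2 CPM in F0_Ctl and 27.7, 30.9 and 30.1 in F0_Dep. Its values were 25.1, 22.1 and 27.8 CPM in F1_Ctl and 34.2, 33.6 and 34.6 in F1_Dep. The F1 groups stood well apart, while in F0 the gap between groups was narrow. Edem1 had a log2 fold change of 0.21 (SE 0.10, adjusted p = 0.287 in edgeR) for F0 and 0.45 (SE 0.10, adjusted p = 0.0936) for F1. Sel1l and Syvn1, the adaptor and the ubiquitin ligase of the same complex, had 0.25 and 0.23 for F0 and 0.33 and 0.37 for F1. The Derlins, membrane channel proteins of the pathway, were less uniform: Derl1 was at -0.14 and -0.18, Derl2 at 0.16 and -0.04, and Derl3 at 0.14 and 0.03 with only 0.597 to 1.85 CPM. Over the 7 genes the median was 0.21 for F0 and 0.33 for F1.

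Of the sensors and transcription factors, Xbp1 had 73.9, 66.8 and 56.9 CPM in F0_Ctl, 69.7, 78.1 and 81.3 in F0_Dep, 57.7, 63.2 and 87.7 in F1_Ctl, and 84.5, 97.4 and 98.4 in F1_Dep. Both pairs of groups overlapped, in F1 through F1_Ctl 3 alone. The log2 fold change of Xbp1 was 0.21 (SE 0.15, adjusted p = 0.456 in edgeR) for F0 and 0.43 (SE 0.15, adjusted p = 0.223) for F1. Ern1 and Eif2ak3 had values of 0.22 and 0.22 for F0 and of 0.28 and 0.19 for F1, none of them past the test.

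Atf6 was set apart from the other sensors by its offspring values. It had 93.7, 103 and 91.1 CPM in F0_Ctl, 117, 115 and 131 in F0_Dep, 118, 112 and 93.5 in F1_Ctl, and 107, 114 and 103 in F1_Dep. The F0 groups did not overlap, and the F1_Dep values lay inside the range of F1_Ctl. Its log2 fold change was 0.34 (SE 0.10, adjusted p = 0.114 in edgeR) for F0 and -0.00 (SE 0.10, adjusted p = 0.998) for F1. On FPKM, Atf6 rose by 0.49 (SE 0.11, adjusted p = 0.0153 in limma) in F0_Dep.

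Atf4 mRNA was at 136, 112 and 103 CPM in F0_Ctl, 107, 102 and 90.5 in F0_Dep, 108, 110 and 115 in F1_Ctl, and 128, 131 and 147 in F1_Dep. All 3 F1_Dep mice were above the F1_Ctl mice, while the F0 groups overlapped with F0_Dep on the lower side. In log2 fold change Atf4 was at -0.22 (SE 0.11, adjusted p = 0.291 in edgeR) for F0 and 0.28 (SE 0.11, adjusted p = 0.258) for F1.

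The Atf4 targets were described apart from the chaperones, and a difference between the classes was not tested. Over the 5 that could be tested the median log2 fold change was -0.08 for F0 and 0.15 for F1, with 2 and 4 of them above 0. Their class level was 0.09, 0.07 and 0.17 in F1_Dep and between -0.15 and 0.02 in the other 9 libraries, so the F1_Dep mice were the highest, by a small margin. Chac1, whose enzyme breaks down glutathione, had 5.5, 4.71 and 3.72 CPM in F0_Ctl, 2.72, 2.49 and 2.62 in F0_Dep, 4.88, 3.25 and 3.74 in F1_Ctl, and 4.73, 4.0 and 4.68 in F1_Dep. The 3 F0_Dep mice had the lowest values of all 12. The log2 fold change of Chac1 was -0.83 (SE 0.21, adjusted p = 0.0817 in edgeR) for F0 and 0.17 (SE 0.21, adjusted p = 0.753) for F1. The FPKM values were 3.5, 3.06 and 2.53 in F0_Ctl against 1.68, 1.38 and 1.31 in F0_Dep, a fall by 0.71 on log2(FPKM + 1) with an adjusted p of 0.0108 in limma.

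Sesn2, a stress-induced inhibitor of growth signalling, went the other way in F0. It ran from 13.9 to 15.9 CPM in F0_Ctl and from 20.1 to 21.7 in F0_Dep, with a log2 fold change of 0.45 (SE 0.14, adjusted p = 0.126 in edgeR). In F1 it was at -0.07. Ddit3 (CHOP), a transcription factor linked to cell death, had 19.5, 19.2 and 18.6 CPM in F0_Ctl, 17.9, 18.3 and 17.5 in F0_Dep, 17.4, 20.2 and 22.9 in F1_Ctl, and 21.0, 22.6 and 24.4 in F1_Dep. Its F0 groups did not overlap, but the log2 fold change was only -0.09 (SE 0.11, adjusted p = 0.670 in edgeR), and for F1 it was 0.17 (SE 0.11, adjusted p = 0.502).

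Asns, which makes asparagine and carries a CARE close to its start, had the smallest difference in F0 of the Atf4 targets. Its values were 92.4, 86.5 and 80.9 CPM in F0_Ctl, 80.9, 89.9 and 90.1 in F0_Dep, 79.6, 91.8 and 75.6 in F1_Ctl, and 91.0, 83.2 and 87.0 in F1_Dep. All groups overlapped, and the log2 fold changes were 0.01 and 0.08 (SE 0.09 for each). Ppp1r15a (GADD34), which reverses the phosphorylation of eIF2, was at -0.08 and 0.15. Trib3 had 0.356, 0.38 and 0.318 CPM in F0_Ctl, 0.38, 0.332 and 0.273 in F0_Dep, 0.22, 0.275 and 0.449 in F1_Ctl, and 0.463, 0.516 and 0.585 in F1_Dep. Those are 5 to 13 counts a library, and the F1_Dep values, though above every other, were not tested in this fit. In the 7 alternatives that kept the gene, its F1 log2 fold change ran from 0.51 to 1.14, with adjusted p from 0.315 to 0.679, so it passed in none.

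Setting both comparisons side by side, 16 of the 31 genes had a log2 fold change above 0 in F0 and in F1, and 2, Canx and Derl1, were below 0 in both. A further 4 (Atf6, Derl2, Dnajb9 and Sesn2) were above 0 in F0 only. The remaining 9, Atf4 and Chac1 among them, were above 0 in F1 only. The average of the F0 and the F1 change, fitted over all 12 libraries, was the only one of the comparisons in which genes passed edgeR's test. Herpud1 rose by 0.45 (SE 0.08, adjusted p = 0.0371) and Hyou1 by 0.36 (SE 0.07, adjusted p = 0.0463), so 2 of 31 were called where 0.785% of all genes were. At an unadjusted p under 0.05 there were 13 higher (41.9%, against 9.72% of all genes) and 1 lower (Chac1, against 11.9%), and 27 of 31 were above 0, against 45.6%. The 6 Dep mice did not overlap the 6 control mice for these 2 genes, as for 0.933% of all genes on the higher side and 0.927% on the lower. Edem1 followed at 0.33 with an adjusted p of 0.0548, Syvn1 at 0.30 with 0.0701 and Sel1l at 0.29 with 0.0719. DESeq2 called 7 genes higher (Xbp1, Sel1l, Syvn1, Hspa5, Edem1, Herpud1 and Hyou1), against 4.28% of all genes, and limma with library quality weights called 11, against 4.49%. With 1 library left out, both calls were lost for 8 of the 12 libraries (F0_Ctl 1 and 3, F0_Dep 1, 2 and 3, F1_Ctl 2, and F1_Dep 2 and 3), and Hyou1 was also lost without F1_Ctl 3. Adjusted p in edgeR was at most 0.125 for Herpud1 and 0.149 for Hyou1, both without F0_Dep 2, at log2 fold changes of 0.45 and 0.35. The count of called genes was 5 without F1_Ctl 1, 4 without F0_Ctl 2 and 3 without F1_Ctl 3. Calls over all genes changed as well. With all 12 libraries, 0.433% of all genes were called higher and 0.352% lower. These shares were 3.71% and 5.46% without F1_Ctl 1, and 2% and 1.69% without F0_Ctl 2. Without F1_Ctl 3 they were 0.285% and 0.0728%.

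**Figure D5:**
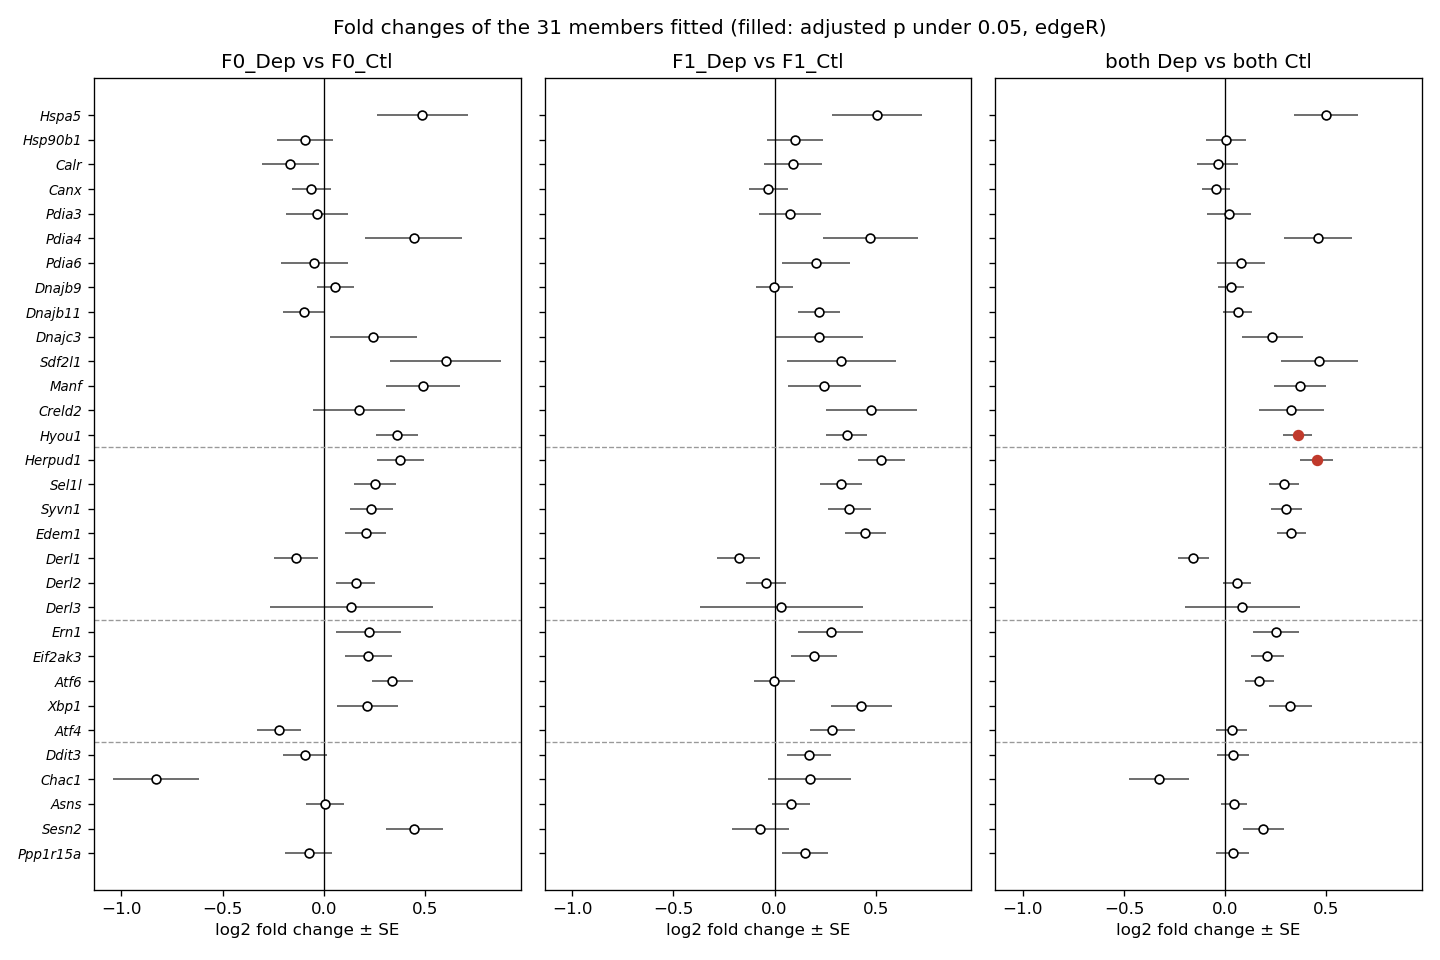
Log2 fold change with its standard error for each of the 31 fitted genes, in F0_Dep against F0_Ctl, F1_Dep against F1_Ctl and both Dep against both Ctl, with filled points for an adjusted p under 0.05 in edgeR and dashed lines between the classes. The filled points are Herpud1, at 0.45, and Hyou1, at 0.36, in the third panel, and Chac1 is at -0.83 in F0 and 0.17 in F1.

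The F1 change minus the F0 change was tested as an interaction. No gene of the 31 passed in edgeR, where 0.068% of all genes did. DESeq2 also called 0 of the 31, where it called 1.03% of all genes higher and 2% lower. limma with library quality weights called 0 of the 31 as well, where it called 156 of all 16178 genes higher and 198 lower. At an unadjusted p under 0.05 there were 3 higher (against 6.01% of all genes) and 2 lower (against 7.41%), and 20 of 31 were above 0, against 50.3%. Chac1 had the largest of the 31 values, 1.0 (SE 0.30, adjusted p = 0.172), and Atf4 was at 0.51 (SE 0.16, adjusted p = 0.189). On the other side were Sesn2 at -0.52 (SE 0.20, adjusted p = 0.287) and Atf6 at -0.34 (SE 0.14, adjusted p = 0.328). Hspa5 was at 0.02 (SE 0.32) and Hyou1 at -0.00 (SE 0.14). A difference between the generations was therefore not shown for any of these genes.

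The sons of stressed males were also set against the normal F0 mice, a comparison that shares F0_Ctl with the F0 comparison and F1_Dep with the F1 comparison. It also spans 2 generations. All 14 chaperones were above 0, with a median of 0.41, and 12 of them did not overlap between groups. Over the 31 genes 18 did not overlap, all higher in F1_Dep (58.1%, against 9.09% of all genes, while 10.5% were lower without overlap). No gene passed edgeR's test, as none of the 16178 did (0%). limma with library quality weights called 0 of the 31, where it called 7 of all genes higher and 6 lower. At an unadjusted p under 0.05 there were 14 higher (45.2%, against 6.55% of all genes) and 0 lower (against 6.3%), and 27 of 31 were above 0, against 47.5%. Hspa5 was at 0.95 (SE 0.22, adjusted p = 0.143), Pdia4 at 0.88, Sdf2l1 at 0.81, Creld2 at 0.73, Manf at 0.66 and Herpud1 at 0.61. DESeq2 called 6, Hspa5, Pdia4, Manf, Hyou1, Edem1 and Herpud1, against 1.54% of all genes. Without F1_Dep 1, edgeR called Herpud1 alone (0.73, adjusted p = 0.0301), where 0.0663% of all genes were called higher. On FPKM, limma called Hspa5 alone, at 1.02 (SE 0.14, adjusted p = 0.0232), against 0.145% of all genes. All 3 F1_Dep libraries held choroid plexus markers at 2791 CPM or more, and the same was true of only 1 of the 3 F0_Ctl libraries.

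Sons of normal males against normal F0 mice gave the difference between the control groups. No gene passed the test of edgeR, of DESeq2 or of limma with library quality weights, as none of all genes did (0%) in any of them. At an unadjusted p under 0.05 there was 1 higher, Manf (against 2.82% of all genes), and 0 lower (against 3.07%), and 21 of 31 were above 0, against 54%. The chaperone median was 0.18, with 13 of 14 above 0, and Hspa5 was at 0.44 (SE 0.22, adjusted p = 0.751). No gene was free of overlap, against 2.72% of all genes on the higher side and 3.35% on the lower. Without F1_Ctl 3 the median of the 31 genes went from 0.08 to -0.04. This comparison also holds the difference in lane labels, as does every other comparison that uses F1_Ctl.

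The libraries F0_Ctl 3, F1_Ctl 3 and F1_Dep 1, which held the most choroid plexus or striatal RNA of their groups, were left out together as a choice made after the data were seen. These include the highest chaperone level of F1_Ctl, 0.44, and the lowest of F1_Dep, 0.02, so leaving them out widens the F1 difference by construction, and the calls below are a description. In F1_Dep against F1_Ctl, edgeR then called 8 of the 31 genes higher (Hspa5, Pdia4, Pdia6, Dnajc3, Creld2, Manf, Herpud1 and Xbp1), where 1.54% of all genes were called higher. The log2 fold change of Hspa5 was 1.01 with an adjusted p of 0.00518. Choroid plexus levels still differed between the remaining libraries, at -1.54 and 0.02 in F1_Ctl and 2.96 and 2.86 in F1_Dep. In F0_Dep against F0_Ctl the count was 2, Pdia4 and Hspa5, both higher, where 2.19% of all genes were called higher and 0.904% lower. F0_Ctl 3 held the most Pdia4 of its group, 42.7 CPM against 30.9 and 33.8, so leaving it out widens that difference by construction too. For Hspa5 it lay between the other F0_Ctl libraries, at 190 CPM against 185 and 196.

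Other genes of the pathway were taken from fixed lists outside the 32. In a list of 42 genes of ER protein entry, folding and degradation, none passed edgeR's test in any comparison. For F0, 3 were higher and 3 lower at an unadjusted p under 0.05, where 10.3% and 9.39% of all genes were, and for F1 1 higher and 3 lower, where 6.32% and 8.49% were. The medians were -0.03 in both. In a list of 34 genes of the integrated stress response, of which 32 were fitted, none passed either. There, 3 were higher and 2 lower at an unadjusted p under 0.05 for F0, and 6 higher and 1 lower for F1, beside the same shares of all genes. The medians were 0.01 and 0.06, where those of all genes were -0.04 and -0.02 and those of the 31 fitted genes 0.17 and 0.20. Within the 27 fitted genes with a promoter, the 11 with an ERSE or ERSE-II had a median of 0.14 for F0 and 0.22 for F1, and the 16 without had 0.18 and 0.18.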

How the data were processed

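The authors deposited expected counts, of which 27.2% were not whole numbers, for 12 libraries, and FPKM values for 9; FPKM of F1_Ctl were not used here. Libraries were made with a stranded mRNA kit, per the labels' protocols. HISAT2, Cufflinks 2.2.1 and mm10 are named without roles, per the submitters' processing notes; the sources used here do not name the counting tool, its annotation or its use of strand, so overlapping and antisense genes cannot be told apart. Unused per-sample columns numbered 0, and 610 IDs had no symbol.

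Counts were rounded and tested with edgeR 4.0.16 (R 4.3.3): filterByExpr, TMM scaling, quasi-likelihood F-test over all 4 groups, Benjamini-Hochberg adjustment over 16178 genes, called at an adjusted p under 0.05. The design had assumed whole counts. Standard errors are approximate, derived from each fold change with its F statistic. CPM uses the TMM-scaled totals. FPKM was tested with limma 3.58.1 on log2(FPKM + 1), with at least 1 FPKM in at least 3 libraries. P-values rest on the spread between mice within groups, estimated over all 4 groups together and not from the compared groups alone. The number of 3 mice a group limits the precision. The fit was tested on simulated data.

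Members and lists were chosen with earlier results of these data known. Values in every library are given for genes called in a comparison, the 3 smallest p in each of the F0 and F1 comparisons, and 7 leading genes of the branches (Hspa5, Hsp90b1, Xbp1, Ddit3, Atf4, Asns and Trib3); other genes given with values were chosen after these were seen. Alternatives were DESeq2 1.42.0, limma voom with quality weights, other scalings, filters, pseudocounts and thresholds, a replicate block and each library left out. Same-numbered libraries correlated between -0.18 and 0.50, above 0.1 in 2 of 18 pairs, so there was little sign that the numbers pair mice. Whether same-numbered mice were related or handled together was not tested. Of the promoters, 26 of 29 had their last 25 bases in an annotated transcript.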

Additional observations from a re-analysis of the deposited data

How the results depend on the processing

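Of the 31 genes, the number called depended on the tool more than on the scaling. For F0_Dep against F0_Ctl, where edgeR called 0, DESeq2 called 5, limma 4 at either FPKM pseudocount and 3 without the filter, an adjusted p under 0.1 gave 1, and leaving out F0_Ctl 3, F1_Ctl 3 and F1_Dep 1 gave 2. For F1_Dep against F1_Ctl (0), the counts were 4 with DESeq2, 9 with voom weights, 2 at 0.1 and 8 without those 3 libraries. For F1_Dep against F0_Ctl (0), they were 6 with DESeq2, 1 with limma at either pseudocount and 9 without the 3 libraries. Without those libraries 3.18% of all genes were called higher there and 0.615% lower, where edgeR on all libraries called 0%. For both Dep against both Ctl (2), they were 7 with DESeq2, 11 with voom weights, 1 without the low count filter, 5 at 0.1 and 9 without the 3 libraries. The interaction (0) gave 1, Creld2, without them. Without the 3 libraries, 1.43% of all genes were called higher and 0.4% lower for both Dep against both Ctl. For the interaction it was 1.28% and 1.66%. At 0.1, 444 of all 16178 genes were called higher and 227 lower for F0, against 56 and 24 at 0.05. The numbers were 71 and 96 for F1, against 7 and 20, and 453 and 500 for both, against 70 and 57. Leaving out 1 library gave 0 to 0, 0 to 1, 0 to 1, 0 to 5 and 0 to 0 called genes in these comparisons, in that order, and 0 to 0 for F1_Ctl against F0_Ctl.

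Median log2 fold changes with 1 library left out ran from 0.12 to 0.25 for F0, 0.14 to 0.32 for F1, 0.21 to 0.28 for F1_Dep against F0_Ctl, 0.15 to 0.23 for both, -0.036 to 0.12 for F1_Ctl against F0_Ctl and 0.019 to 0.28 for the interaction. Without the 3 libraries the F1 median was 0.37, that of F1_Ctl against F0_Ctl turned to -0.026, and that of the interaction, 0.07 in edgeR, was 0.29, against 0.24 with voom weights. The cause was not tested.

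With a replicate block, 0 genes of the set were called in both Dep against both Ctl (Herpud1 0.0783 and Hyou1 0.0889 as edgeR adjusted p). Of all 16178 genes, 15 were then called higher and 5 lower. There was little sign that the replicate numbers pair the mice, and 3 of 12 libraries correlated best with their own number. Herpud1 passed in 13 of 22 alternatives (adjusted p from 8.03e-05 to 0.125) and Hyou1 in 11 of 22 (0.000316 to 0.149). For the 11 fitted genes whose values are given in every library by rule, 1298 values under an alternative were computed: 1151 kept their direction and side of the threshold, 52 newly passed it and 20 no longer did. The other 75 changed sign, none of them called before or after, with sizes up to 0.21 and adjusted p of at least 0.621. Trib3, at 5 to 13 counts a library, and Derl3 are limited by depth.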
